A study of Xenopus laevis with 39 samples.

Results

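The genes described here are the cell junction and cadherin genes of the frog Xenopus laevis, taken by name from the deposited count table. They are the claudins, occludin and the zonula occludens proteins, the connexins, the cadherins that carry a number, and the desmosomal cadherins with plakophilins, desmoplakin and plakoglobin. The name rule found 132 gene entries among 37223. They comprised 41 cadherins, 35 claudins, 31 connexins, 17 desmosome genes and 8 entries for occludin and zonula occludens proteins. Xenopus laevis carries a pair of subgenomes, marked by the suffix .L or .S, and the 132 entries stand for 75 symbols, of which 57 were present as both homeologs. The rule used names only and no measured value.

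RNA was sequenced from noses and olfactory bulbs in 13 groups of 3 libraries. The adult noses came from animals after metamorphosis, at stage 66. Larval noses and larval bulbs were taken 2 days, 1 week and 7 weeks after transection (the labels do not name the cut structure), and larval noses were taken after amino acid exposure for 5 h at dose 200 or 1000. The unit of the dose is given incompletely in the titles and is not printed here. Whole noses and bulbs of premetamorphic larvae served as controls, 1 group for each tissue. The larval principal cavity, which holds the main olfactory epithelium, and the larval vomeronasal organ (VNO) formed a pair of their own. The labels give no strain, sex, age in days or number of animals per library, no separate control for the exposed animals and none matched in time to the transected ones. Age, handling and time after transection therefore cannot be told apart in these comparisons.

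Tight junctions seal the space between epithelial and endothelial cells. Claudins form their strands and set which ions pass, occludin is a further membrane protein of the strand, and the zonula occludens proteins (tjp1 to tjp3) tie both to actin. Adherens junctions are built on classical cadherins, and desmosomes on desmogleins and desmocollins, which plakoglobin, plakophilins and desmoplakin link to keratin filaments. Connexins form gap junctions, through which ions and small molecules pass from cell to cell. In the olfactory system, the epithelium of the nose is sealed by such junctions, while type II cadherins are known as cell surface labels of neuronal groups in the brain.

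Each library held 25819955 to 180525128 counted reads, with a median of 69662219 reads. The members took 0.346 to 0.653% of reads in the whole nose libraries, 0.381 to 0.494% in the principal cavity and VNO, and 0.119 to 0.194% in the bulbs. Library 1 of the bulbs 7 weeks after transection stood lowest, at 0.119%, against 0.152% in both other libraries of its group. The VNO samples carry a tissue tag that reads olfactory lobe, yet their astroglial markers summed to 86.3 to 145.8 CPM (a read count scaled to the size of the library with TMM factors) and their central neuron markers to 171 to 283.8 CPM, against 2276 to 2921 and 1545 to 1647 CPM in control bulbs. Muscle markers summed to 733.1 CPM in library 1 of the larval noses, against 63.7 and 41.5 CPM in its other libraries, and to 647.5 CPM in library 2 of the noses at 2 days, against 26.6 and 29.3 CPM. Of the 132 members, 118 passed the low-count filter in the nose model, 115 in the bulb model, 114 in the chamber model and 123 in the model of noses and bulbs together. The 7 that passed in no model (cldn14.L, cldn22.L, cldn22.S, gja10.S, gja3.S, gja9.L and gjd4.L) had at most 172 reads in a library.

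The nose was first set against the bulb, the target of the olfactory nerve in the brain. In TPM, a transcript level corrected for gene length and library size that is used here to compare genes, claudins dominated the control larval nose. Their summed level was 5173, 7951 and 7194 TPM in the 3 larval noses, against 452.9, 462.3 and 558.5 TPM in the larval bulbs. Desmosome genes summed to 379.8, 374.1 and 322.3 TPM in noses, against 48.5, 48.8 and 47.4 TPM in bulbs. The summed cadherin level differed little, with 112.1, 149.2 and 115.7 TPM in noses, against 103.3, 103.8 and 109.6 TPM in bulbs. Connexins summed to 268.5, 378.5 and 297.3 TPM in noses, against 139.9, 141.0 and 138.0 TPM in bulbs.

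**Figure D1:**
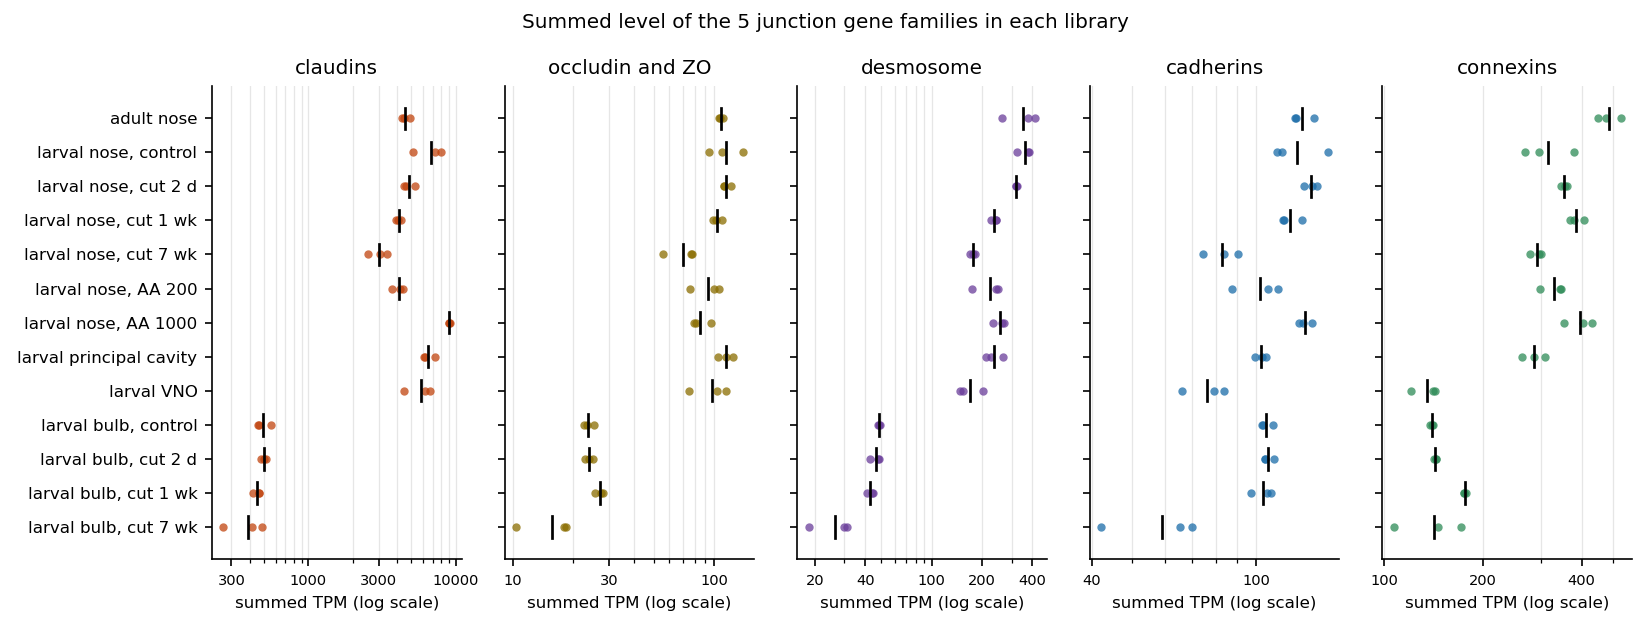
Summed TPM of the 5 families (log scale) in every library of the 13 groups, with points for libraries and black bars for group means. Claudins are highest in noses at amino acid dose 1000 (8975 to 9205 TPM), and library 1 of the bulbs 7 weeks after transection is the lowest bulb point in each family.

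The most abundant members differed by tissue. In noses these were cldn4.L (1610 ± 356.5 TPM, SD, n = 3), cldn4.S (1207 ± 426.1 TPM) and cldn7.S (952.7 ± 93.2 TPM), claudins of tight epithelia. Among the other families of the nose, dsg2.L led the desmosome genes at 82.3 ± 5.73 TPM, cdh1.S (E-cadherin) the cadherins at 48.9 ± 8.29 TPM, and ocln.L its family at 45.6 ± 9.25 TPM. In bulbs the highest claudins were cldn5.S (176.8 ± 10.2 TPM) and cldn5.L (170.9 ± 11.0 TPM), known from the endothelium of brain vessels. The leading bulb connexin was gja5.L at 40.3 ± 1.62 TPM, the leading cadherin cdh22.L at 15.2 ± 0.263 TPM, the leading desmosome gene jup.L (plakoglobin) at 11.9 ± 0.507 TPM, and tjp1.S led its family at 6.44 ± 0.481 TPM.

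Of 123 members tested, 67 were higher and 40 lower in larval noses than in larval bulbs, 87% in all, where 74.8% of all genes tested were called (39.7% higher, 35.1% lower). Libraries did not overlap in 106 of the 107. Here and below, such overlap was counted among called members only. It was not counted over all called genes, so it is not read as a trait of the members. By family, 22 of 30 claudins were higher and 5 lower (median log2 fold change 3.46), 14 of 17 desmosome genes were higher and 1 lower (3.73), and 6 of 8 occludin and zonula occludens entries were higher and 1 lower (2.01). Connexins were called higher in 15 and lower in 7 of 27 (median 0.51). Cadherins went the other way, with 10 higher and 26 lower of 41 (median -1.85), beside a median of 0.10 over all genes tested.

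Among claudins, cldn4.S had 248.8, 418.4 and 446.4 CPM in larval noses, against 0.485, 0.410 and 0.730 CPM in larval bulbs. Its log2 fold change was 9.49 ± 0.61 (SE; adjusted p = 3.04e-11, edgeR quasi-likelihood test with Benjamini-Hochberg adjustment over all genes, as for every adjusted p below). Among cadherins, cdh1.S had 278.3, 311.0 and 316.0 CPM in noses, against 0.351, 0.455 and 0.617 CPM in bulbs (9.37 ± 0.66, adjusted p = 1.67e-10). Both genes were close to absent from bulbs and among the most abundant members in noses. The desmoglein dsg4.S (8.34 ± 0.66) had a difference of similar size. For cldn6.1.L, 2.22, 8.15 and 13.7 CPM were measured in noses, and bulb libraries had 0 to 2 reads, too few for a fold.

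Cadherins made up 26 of the 40 members lower in noses than in bulbs. For cdh10.S, a type II cadherin, 0.406, 0.391 and 0.322 CPM were measured in larval noses, against 48.7, 48.4 and 49.3 CPM in larval bulbs (-6.99 ± 0.34, adjusted p = 6.96e-14). The homeolog cdh10.L fell by 6.72 ± 0.34 on the log2 scale, and cdh8.L (-6.37 ± 0.24), cdh20.L (-5.75 ± 0.32), cdh24.L (-5.26 ± 0.31) and cdh22.S (-5.08 ± 0.33) were also lower in noses. The N-cadherin gene cdh2.L, known from neural tissue, had 56.6, 54.7 and 50.2 CPM in noses, against 149.9, 156.7 and 150.7 CPM in bulbs (-1.45 ± 0.11). Vascular claudin cldn5.L was lower in noses as well, with 6.61, 6.83 and 6.69 CPM against 45.5, 49.7 and 50.2 CPM in bulbs (-2.80 ± 0.14). The zonula occludens scaffold tjp1.L was not called (0.12 ± 0.11), and the P-cadherin genes cdh3.S (6.23 ± 0.27) and cdh3.L (5.62 ± 0.24) were higher in noses. In whole tissue, fewer cells of a type and less RNA per cell cannot be told apart, here and in every comparison below. Epithelial markers, 17 entries all with reads, summed to 7752 to 9459 CPM in larval noses and 434.1 to 483.9 CPM in larval bulbs. Their part in these differences was not tested.

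**Figure D2:**
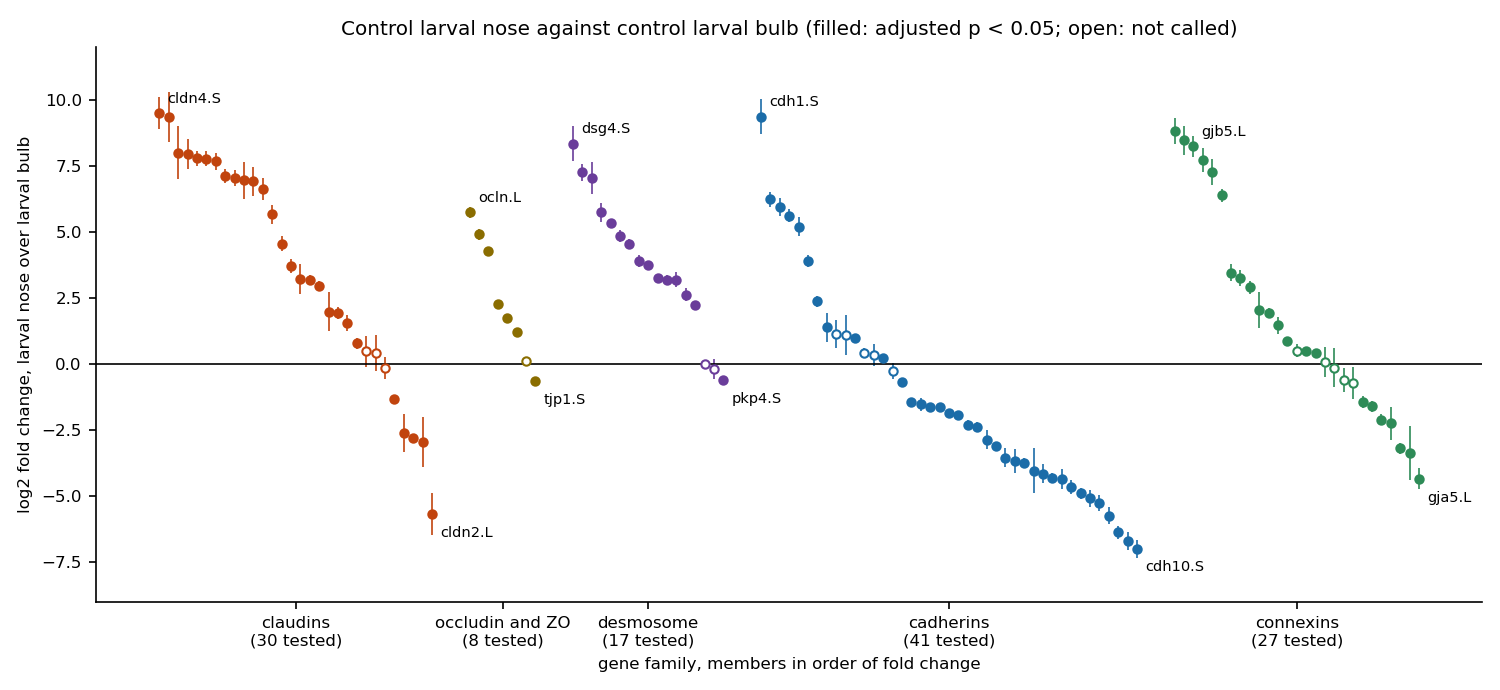
Log2 fold change of each tested member in control larval noses over control larval bulbs, by family and in order of size, with SE bars. Filled points were called and open ones were not. Claudin, desmosome and occludin points lie mostly above 0, and 26 of 41 cadherins are called below it.

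Genes that build or regulate the same junctions, from lists outside the name rule, were counted beside the members. In larval noses against larval bulbs, 15 of 15 entries for epithelial regulators (such as grhl, ovol and esrp genes) were higher, as were 10 of 13 partners of desmosomes and hemidesmosomes, with 1 lower. Tight junction partners were higher in 19 and lower in 6 of 25. Adherens junction partners were split evenly, with 5 higher and 5 lower of 10. Of all genes tested, 39.7% were higher and 35.1% lower in that comparison.

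Adult noses were compared with larval noses, which spans metamorphosis. Of 118 members tested, 32 were higher and 30 lower, or 52.5%, beside 45.3% of all genes (22.7% higher, 22.6% lower), and in 58 of the 62 the libraries did not overlap. Claudins fell in 12 and rose in 5 of 29 (median -0.41). Connexins rose in 10 and fell in 4 of 23 (median 0.47). Desmosome genes rose in 5 and fell in 4 of 17, cadherins rose in 11 and fell in 8 of 41, and 1 occludin or zonula occludens entry rose and 2 fell of 8.

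Among tight junction genes, the claudin 6 copies were low in adults. For cldn6.1.S, 3.52, 1.92 and 2.31 CPM were measured in adult noses, against 17.2, 36.8 and 71.6 CPM in larval noses (-4.03 ± 0.51, adjusted p = 1.39e-05). The larval libraries of that gene varied widely among themselves, but all lay above the adult ones. Its neighbours in name fell likewise: cldn6.1.L by 5.02 ± 0.70, cldn6.2.L by 3.35 ± 0.21 and cldn6.2.S by 3.05 ± 0.28 on the log2 scale. CLDN6 is known in mammals as a claudin of embryonic epithelia. The abundant claudins cldn4.L (209.8, 186.2 and 179.3 CPM in adult noses, 447.8, 528.0 and 657.6 CPM in larval noses) and cldn7.L (-1.02 ± 0.11) were lower too. In contrast, cldn15.1.L had 5.95, 7.74 and 8.54 CPM in adult noses, against 1.34, 0.755 and 0.939 CPM in larval noses (2.90 ± 0.51), and cldn15.1.S rose by a similar size (2.82 ± 0.64). CLDN15 forms cation pores in the gut of mammals.

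Connexin changes were large in both directions. A connexin of epithelia, gjb2.S, had 18.7, 12.1 and 10.9 CPM in adult noses, against 0.191, 0.350 and 0.245 CPM in larval noses (5.69 ± 0.51, adjusted p = 3.14e-08). Conversely, gjb1.L had 0.201, 0.333 and 0.425 CPM in adult noses, against 11.5, 7.50 and 8.74 CPM in larval noses (-4.82 ± 0.27, adjusted p = 5.08e-11). For neither gene did the libraries of the stages come near each other. The widely used connexin 43 gene gja1 rose as both homeologs, gja1.L by 1.64 and gja1.S by 2.94 ± 0.47 on the log2 scale. In larval noses gja1.S was near absent, with 0.072, 0.189 and 0.116 CPM, against 14.8, 16.2 and 18.7 CPM for gja1.L.

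Desmosome genes changed composition. Desmoglein dsg4.L had 118.2, 34.1 and 81.5 CPM in adult noses, against 11.6, 6.86 and 6.09 CPM in larval noses (3.26 ± 0.39), and dsg4.S rose by 2.81 ± 0.41. Plakophilin 1 rose as well, with 35.98, 11.2 and 20.3 CPM for pkp1.S in adult noses, against 4.65, 4.24 and 2.83 CPM in larval noses (2.53 ± 0.49). Meanwhile dsg2.L had 75.4, 74.9 and 80.5 CPM in adult noses, against 334.1, 239.1 and 328.0 CPM in larval noses (-1.96 ± 0.19), and pkp3.S (-1.29 ± 0.17) and pkp3.L (-0.54 ± 0.12) fell. The linkers dsp.L, dsp.S, jup.L and jup.S were not called, with log2 values between -0.28 and 0.21. Without adult library 2 dsp.L was called higher (0.41, adjusted p = 0.0156), and without adult library 1 jup.L was called lower (-0.45, adjusted p = 0.013), as was jup.S (-0.37, adjusted p = 0.0268). DSG4 and PKP1 are known in mammals from stratified epithelia such as skin and its appendages, and DSG2 and PKP3 are widespread in epithelia. Adult library 2 had the lowest value for dsg4.L and pkp1.S, and its epithelial marker sum of 4819 CPM was the lowest of its group.

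E-cadherin showed a shift between homeologs. The rarer cdh1.L had 40.5, 23.4 and 25.9 CPM in adult noses, against 4.99, 4.18 and 6.60 CPM in larval noses (2.51 ± 0.25), while cdh1.S had 252.8, 209.6 and 190.0 CPM in adult noses, against 278.3, 311.0 and 316.0 CPM in larval noses (-0.47 ± 0.13). The L copy made up 15.4, 11.3 and 13.4% of cdh1 TPM in adult noses, against 1.99, 1.5 and 2.32% in larval noses. How reads were shared between homeologs in the counting is not given in the sources used here, so such splits are uncertain. P-cadherin, another cadherin of epithelia, was higher as cdh3.S, with 136.1, 134.6 and 139.4 CPM in adult noses, against 79.8, 79.2 and 76.4 CPM in larval noses (0.80 ± 0.10), and cdh3.L was not called (-0.20 ± 0.12). Among other cadherins, cdh26.L had 1.06, 1.17 and 2.02 CPM in adult noses, against 22.0, 32.2 and 23.3 CPM in larval noses (-4.17 ± 0.20, adjusted p = 4.53e-12), and cdh6.L was lower (-2.91 ± 0.25). Several marker lists differed beside these changes. Epithelial markers summed to 4819 to 5687 CPM in adult noses and 7752 to 9459 CPM in larval noses, cartilage markers to 921 to 5332 and 8354 to 11170 CPM, and proliferation markers to 52.6 to 123.5 and 247.3 to 415.9 CPM. Their part in the changes was not tested.

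After transection, noses showed few changes at 2 days and more at 1 week and 7 weeks. At 2 days, 12 members were higher and 13 lower of 118 (21.2%, beside 20.2% of all genes, 9.62% higher and 10.6% lower). At 1 week, 15 were higher and 32 lower (39.8%, beside 39.7%, 18% higher and 21.6% lower). At 7 weeks, 21 were higher and 34 lower (46.6%, beside 48.5%, 21.7% higher and 26.8% lower). The shares thus lay near the background at each time. Libraries did not overlap in 24 of 25, 45 of 47 and 44 of 55 called members in that order. The 3 comparisons share the same control libraries.

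Claudins leaned to lower levels, with 3 higher and 8 lower of 29 at 2 days, 4 and 11 at 1 week, and 5 and 11 at 7 weeks. For cldn7.L, controls had 416.4, 467.6 and 448.6 CPM, noses at 2 days 304.6, 292.4 and 283.8 CPM, at 1 week 287.1, 266.9 and 267.9 CPM, and at 7 weeks 275.7, 289.6 and 310.5 CPM. The level was down from 2 days on by a similar amount, with log2 fold changes of -0.60 ± 0.10, -0.70 ± 0.11 and -0.60 ± 0.11, each called. The log2 fold changes of cldn4.L were -0.68 ± 0.12, -0.61 ± 0.12 and -0.56 ± 0.12, and those of cldn6.1.S were -2.48 ± 0.47, -2.13 ± 0.47 and -1.02 ± 0.45, the last not called (adjusted p = 0.0761). Without library 2 at 7 weeks that value was -1.45 and was called (adjusted p = 0.0301), as it was without control library 1 (-1.39, adjusted p = 0.0121). Both homeologs of cldn24 were higher at 2 days and 1 week and not called at 7 weeks. For cldn24.L, 3.13, 2.69 and 1.96 CPM were measured in controls and 15.5, 13.1 and 8.83 CPM at 2 days, and its log2 fold changes were 2.27 ± 0.42, 1.17 ± 0.41 and -0.67 ± 0.44 at the 3 times. Its call at 1 week was lost without any of 4 single libraries (0.98 to 1.25). The homeolog cldn24.S had 5.30, 6.49 and 4.74 CPM in controls, 10.6, 9.99 and 8.28 CPM at 2 days, 14.2, 14.0 and 13.1 CPM at 1 week and 2.49, 5.26 and 3.09 CPM at 7 weeks. Against 1 week, the noses at 7 weeks were lower in cldn24.S (-1.88 ± 0.29) and cldn24.L (-1.83 ± 0.43). The rise of cldn24.S at 2 days (0.80, adjusted p = 0.0447) was lost when any library of either group other than control library 2 was left out, with values of 0.70 to 0.90. Among genes known from vessels, cldn5.S rose at each time, by 0.73, 0.69 and 1.12 on the log2 scale. Its homeolog cldn5.L was not called at any (0.53 ± 0.19, 0.12 ± 0.19 and -0.17 ± 0.20), nor was cdh5.L, and cdh5.S was lower at 7 weeks (-0.67 ± 0.18), a call lost without library 2 at 7 weeks (-0.49, adjusted p = 0.0509). DESeq2 called cldn5.L higher at 2 days (0.56, adjusted p = 0.0241). The gene cldn19.L was not called at 2 days (0.09 ± 0.16) and was lower at 1 week (-0.97 ± 0.17) and 7 weeks (-1.69 ± 0.18). Its homeolog cldn19.S went the other way at 1 week, where it was called higher. At 2 days (0.43 ± 0.18) and 7 weeks (-0.13 ± 0.19) cldn19.S was not called.

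Neither ocln.L nor ocln.S was called at any time, with log2 values between -0.15 and 0.03.

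Desmosome genes were called lower only, in 1 of 17 at 2 days, 9 at 1 week and 8 at 7 weeks, with none higher. Their median log2 fold changes were -0.14, -0.51 and -0.42, beside 0.00, -0.06 and -0.08 over all genes. For pkp1.L, noses at 1 week had 7.38, 10.1 and 9.20 CPM, against 23.1, 23.0 and 16.3 CPM in controls (-1.23 ± 0.26, adjusted p = 0.00102). Library 1 of the controls held the highest value of its group for most desmosome genes. Among these were dsg2.L, pkp3.S, dsg4.S, dsc3.S, dsp.L, dsp.S, jup.L, pkp1.L, pkp1.S and pkp3.L. For dsg2.S, jup.S and pkp4.L it did not. That library also had the highest muscle marker sum among the control noses, as named above. Without it dsg4.L (-0.75, adjusted p = 0.154) and dsg4.S (-0.85, adjusted p = 0.138) at 1 week, and dsp.L (-0.30, adjusted p = 0.131) and pkp3.S (-0.29, adjusted p = 0.0783) at 7 weeks, were no longer called. The dsg4.L, dsg4.S and dsp.L calls were also lost without other single libraries. The gene pkp3.L had 86.1, 96.8 and 83.6 CPM at 1 week and 79.6, 83.8 and 84.9 CPM at 7 weeks, against 149.0, 112.5 and 118.0 CPM in controls, with no overlap at either time. Epithelial markers summed to 5645 to 5881 CPM at 1 week and 4885 to 5827 CPM at 7 weeks, against 7752 to 9459 CPM in controls, and their part in the lower desmosome levels was not tested.

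**Figure D3:**
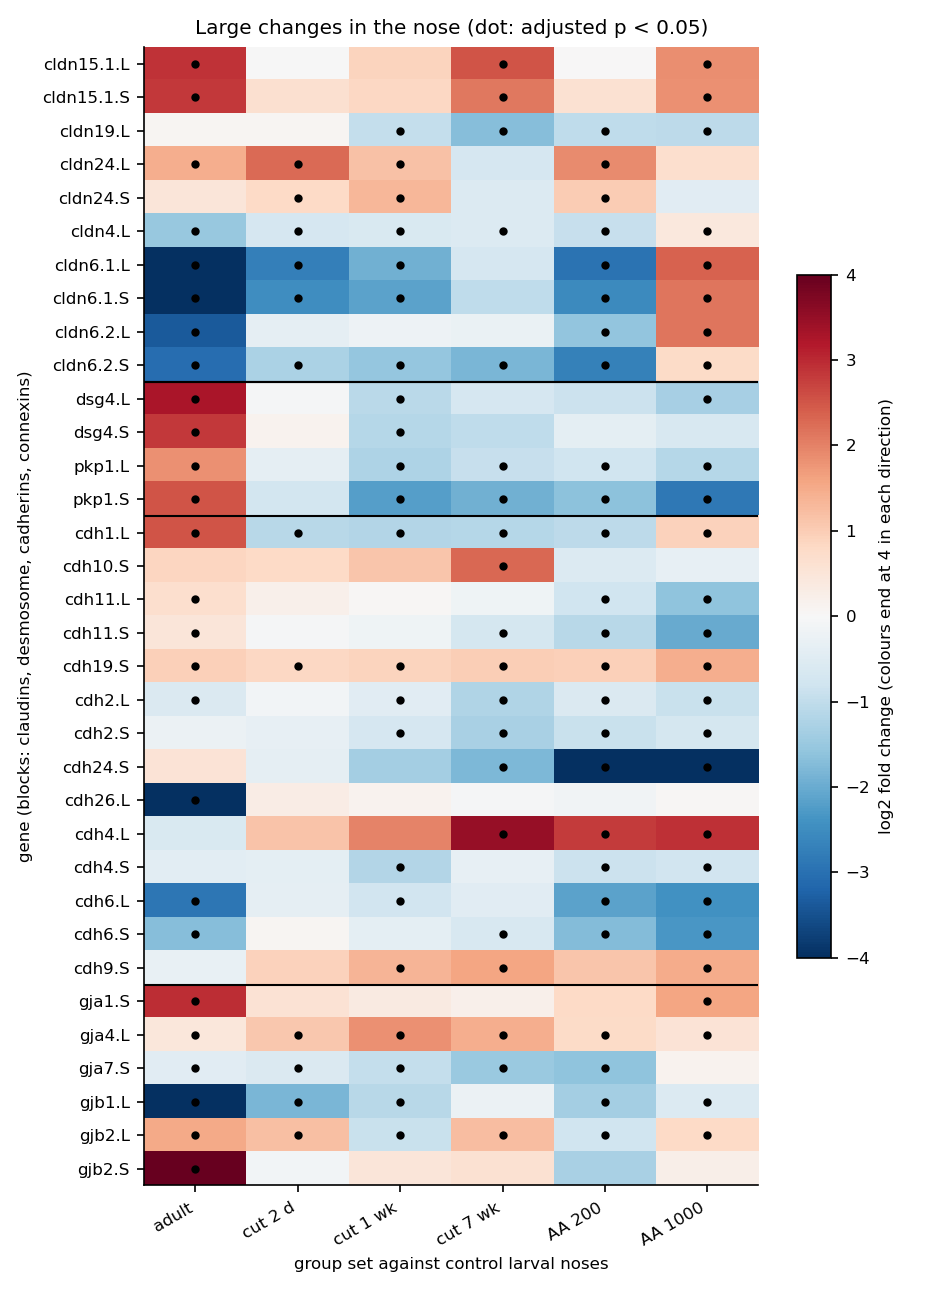
Log2 fold change of members in 6 nose groups over control larval noses, in blocks of claudins, desmosome genes, cadherins and connexins. Red is higher, blue is lower, colours end at 4 in each direction and a dot marks a call. The row of cldn6.1.S is blue in the adult noses (-4.03) and red at dose 1000 (2.15).

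Among cadherins, N-cadherin was lower at the later times. For cdh2.L, 56.6, 54.7 and 50.2 CPM were measured in controls, 56.4, 50.6 and 43.7 CPM at 2 days, 43.4, 38.4 and 37.4 CPM at 1 week and 22.3, 27.4 and 20.3 CPM at 7 weeks. It was not called at 2 days (-0.11 ± 0.12) and was lower at 1 week (-0.44 ± 0.12) and 7 weeks (-1.20 ± 0.13, adjusted p = 2.35e-07). The homeolog cdh2.S reached -1.29 ± 0.14 at 7 weeks. Central neuron markers summed to 33.1 to 109.1 CPM at 7 weeks and 119.1 to 137.2 CPM in controls. Cartilage markers summed to 498.7 to 706.9 CPM at 7 weeks and 8354 to 11170 CPM in controls. Olfactory receptor neuron markers summed to 173.6 to 189.9 CPM at 1 week and 279.6 to 491.7 CPM at 7 weeks, against 455 to 560.3 CPM in controls. The part of these cell types was not tested. The abundant E-cadherin gene cdh1.S was not called at any time (-0.06 ± 0.13, 0.02 ± 0.13 and 0.15 ± 0.13), whereas the rare cdh1.L was lower at all 3 (-1.11, -1.18 and -1.13). P-cadherin cdh3.S rose at each time, by 0.53, 0.84 and 0.75 on the log2 scale, and so did cdh19.S, by 0.84, 0.88 and 0.98, while cdh3.L was not called at any (-0.23 to -0.21). At 1 week cdh4.S was lower (-1.17 ± 0.26). At 7 weeks cdh4.L (R-cadherin) was called higher (3.50 ± 0.89), but this rested on library 3 with 37.7 CPM, since the other libraries had 1.63 and 1.98 CPM and controls had 1.00, 1.46 and 1.11 CPM. Without library 3 the value was 0.63 and not called (adjusted p = 0.119).

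In bulbs after transection, 29 members were higher and 22 lower of 115 at 2 days (44.3%, beside 46.2% of all genes, 21.6% higher and 24.7% lower). Without library 3 at 2 days, 18 were higher and 16 lower of 116. At 1 week, 30 were higher and 21 lower (44.3%, beside 56%, 27% higher and 29.1% lower), and at 7 weeks 30 were higher and 33 lower (54.8%, beside 65.9%, 32.1% higher and 33.7% lower). Without library 1 at 7 weeks, which stood apart, 39 were higher and 36 lower of 116. For these reduced sets the share of all genes is not given here. Called members without overlap between libraries numbered 47 of 51, 50 of 51 and 56 of 63. Cadherins were higher in 12 and lower in 6 of 41 at 2 days, and higher in 8 and lower in 16 at 7 weeks.

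N-cadherin fell in bulbs too. At 7 weeks cdh2.L had 81.9, 93.2 and 88.5 CPM, against 149.9, 156.7 and 150.7 CPM in control bulbs (-0.79 ± 0.06, adjusted p = 2.89e-07). Values at 2 days and 1 week were -0.23 and -0.42. Of the type II cadherins, cdh8.L was not called at 7 weeks (0.10 ± 0.09), nor was cdh10.S (-0.16 ± 0.09), and cdh22.L was lower (-0.36 ± 0.09). R-cadherin cdh4.S was lower at each time, with log2 fold changes of -0.46 ± 0.12, -0.78 ± 0.12 and -1.41 ± 0.12. Adherens junction partners outside the name rule were lower in 9 and higher in 1 of 10 at 7 weeks. Of all genes tested, 33.7% were lower and 32.1% higher at that time. Astroglial markers summed to 1061 to 1807 CPM and proliferation markers to 19.1 to 22.8 CPM at 7 weeks, against 2276 to 2921 and 298.5 to 406.7 CPM in control bulbs. Their part in these changes was not tested.

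Several genes typical of epithelium, low in bulbs, rose after transection, while others fell. Among those that fell were dsc3.L and cldn6.2.S, both higher in larval noses than in larval bulbs. They were called lower in bulbs at 2 days, 1 week and 7 weeks. For cldn7.L, control bulbs had 1.98, 2.52 and 2.29 CPM, bulbs at 2 days 5.14, 4.79 and 6.16 CPM, at 1 week 4.43, 4.69 and 5.01 CPM, and at 7 weeks 3.16, 10.8 and 5.95 CPM. Each time was called (1.15 ± 0.31, 0.97 ± 0.31 and 1.54 ± 0.31), and no library overlapped with the controls. Without library 1 of the control bulbs the call at 1 week was lost (0.89, adjusted p = 0.0595). The gene cldn3.L was higher at 1 week (0.95 ± 0.23) and 7 weeks (1.37 ± 0.23), and cldn4.L at 2 days (1.06 ± 0.27) and 7 weeks (1.70 ± 0.27). E-cadherin cdh1.S had 3.83, 1.15 and 5.93 CPM at 2 days, against 0.351, 0.455 and 0.617 CPM in control bulbs (2.85 ± 0.68). Of 15 entries for epithelial regulators, 12 were higher at 2 days, 6 at 1 week and 11 at 7 weeks, and none was lower. Of all genes tested in bulbs, 21.6%, 27% and 32.1% were called higher at those times. Epithelial markers (keratins, epcam and tp63) summed to 522.9 to 705.4 CPM at 2 days, 384.6 to 425 CPM at 1 week and 249.7 to 399.6 CPM at 7 weeks, beside 434.1 to 483.9 CPM in control bulbs. Their sum was thus above the controls at 2 days and below them at both later times. The part of epithelial cells in the rises and falls of these genes was not tested.

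Claudins of the bulb did not move as 1 group. The gene cldn24.L had 2.68, 2.24 and 4.03 CPM in control bulbs, 2.19, 1.82 and 1.53 CPM at 2 days, 1.09, 0.953 and 0.735 CPM at 1 week and 0.290, 0.170 and 0.122 CPM at 7 weeks. Its log2 fold changes were -0.78 ± 0.27, -1.75 ± 0.28 and -4.01 ± 0.33, and those of cldn24.S were -1.05 ± 0.23, -1.46 ± 0.24 and -1.68 ± 0.24. The cldn24.L call at 2 days was lost without any of 4 single libraries (-0.84 to -0.51). Of the claudins of brain endothelium, in bulbs at 2 days, 1 week and 7 weeks, cldn5.L had log2 values of 0.08 ± 0.10, -0.16 ± 0.10 and 0.07 ± 0.10, none of them called, and its libraries overlapped with the controls each time. For cldn5.S a call was made at 7 weeks alone (0.44, adjusted p = 0.00605). VE-cadherin cdh5.L, also of vessels, was not called in bulbs at any time, but at 7 weeks it was called higher without control library 3 (0.32, adjusted p = 0.046), library 1 (0.31, adjusted p = 0.0331) or library 2 (0.32, adjusted p = 0.0366) at 7 weeks. The scaffold gene tjp1.S was not called at 2 days or 1 week and was lower at 7 weeks (-0.26 ± 0.08).

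Among gap junction genes, gja4.L rose in both tissues. The gene, known in mammals from vessel endothelium, had 29.9, 33.2 and 29.0 CPM in noses at 2 days, against 12.7, 18.0 and 12.8 CPM in control noses, and rose by 1.08 ± 0.13, 1.83 ± 0.13 and 1.44 ± 0.13 at the successive times. Its homeolog gja4.S was lower in bulbs at 2 days (-0.82 ± 0.19). In bulbs gja4.L rose by 1.22 ± 0.20, 1.72 ± 0.20 and 2.39 ± 0.21, and at 7 weeks the nose response was smaller by 0.98 ± 0.26 (adjusted p = 0.00583). Endothelial markers, among them both cldn5 homeologs, summed to 130.5 to 137, 143.2 to 159.9 and 126.7 to 168.1 CPM in noses at the successive times. Control noses had 100.5 to 115.3 CPM. Within these sums, cldn5.S averaged 31.9, 31.0 and 41.6 CPM at the successive times, against 19.1 CPM in control noses. For cldn5.L the means were 9.74, 7.30 and 6.03 CPM, against 6.71 CPM in control noses. In bulbs the sums were 163.4 to 180.2, 156.6 to 174.6 and 179.2 to 202.4 CPM, against 152.6 to 169.2 CPM in control bulbs. The bulb sums thus overlapped with the controls at 2 days and 1 week. The part of these markers in the gja4.L values was not tested.

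The gene gja7 fell in both tissues. For gja7.S, bulbs at 1 week had 4.005, 3.08 and 3.30 CPM, against 29.3, 29.0 and 21.5 CPM in control bulbs (-3.02 ± 0.16, adjusted p = 4e-08). Noses at 1 week had 19.6, 20.1 and 16.3 CPM of gja7.S, against 37.0, 33.9 and 37.6 CPM in control noses (-0.96 ± 0.13). The difference of the responses was called at all 3 times (1.25 ± 0.20, 2.00 ± 0.21 and 1.37 ± 0.21). The homeolog gja7.L had log2 fold changes of -1.32 ± 0.12, -1.43 ± 0.12 and -1.53 ± 0.12 in bulbs, each called, and of -0.12 ± 0.11 (not called), -0.38 ± 0.11 and -1.08 ± 0.11 in noses. Without control library 2 the call in noses at 1 week was lost (-0.26, adjusted p = 0.0825). RefSeq lists gjc1 as a synonym of gja7.S, and the separately named gjc1.L was also lower in bulbs at each time (-1.07 ± 0.13, -1.24 ± 0.13 and -0.96 ± 0.13).

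**Figure D4:**
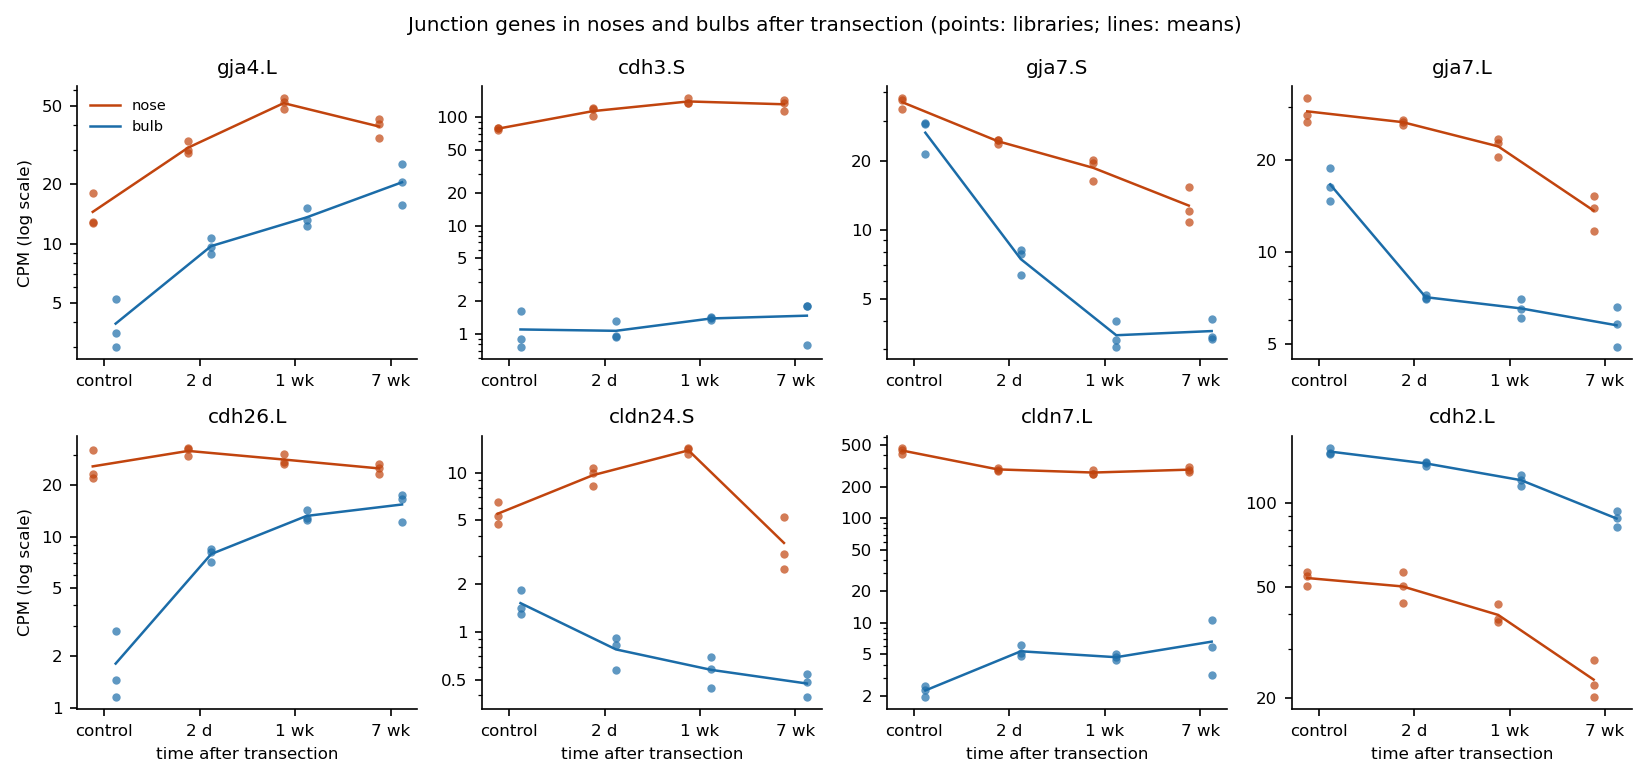
CPM (log scale) of 8 members in noses and bulbs of control larvae and 2 days, 1 week and 7 weeks after transection, with points for libraries and lines through the group means. The gja7.S lines fall in both tissues, cdh26.L climbs in bulbs only, and cldn24.S rises in noses until 1 week while it falls in bulbs.

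The responses of both tissues were then compared over all members. The nose response minus the bulb response was called higher in 7 and lower in 20 of 123 at 2 days (22%, beside 16.1% of all genes, 5.52% higher and 10.5% lower). That share fell to 12.8 to 14.4% of 125 without library 2 of the noses, library 1 or 3 of the bulbs or any control bulb library. The share of all genes in those fits is not given here, so a change over all genes cannot be told apart. At 1 week 8 were higher and 19 lower (22%, beside 25.4%, 10.9% higher and 14.5% lower), and at 7 weeks 16 were higher and 30 lower (37.4%, beside 35.7%, 16.4% higher and 19.3% lower). The cadherin cdh26.L had 12.5, 14.3 and 13.0 CPM in bulbs at 1 week, against 1.45, 1.16 and 2.82 CPM in control bulbs (2.81 ± 0.26), and in noses it was not called (0.13 ± 0.17). Its nose response was smaller by 1.86 ± 0.30, 2.74 ± 0.31 and 3.17 ± 0.31 at the 3 times, each called. For the homeolog cdh26.S the difference was not called at any time (-0.70 ± 0.41, -0.16 ± 0.43 and 0.21 ± 0.43). The cdh2.L response did not differ detectably at 2 days (0.02 ± 0.15) or 1 week (-0.09 ± 0.15) and was more negative in noses at 7 weeks (-0.43 ± 0.15, adjusted p = 0.0265).

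Noses 7 weeks after transection were also set against those at 1 week. Of 118 members, 16 were higher and 20 lower (30.5%, beside 33.5% of all genes, 17.1% higher and 16.4% lower), with no overlap in 29 of the 36. Without library 1 of the noses at 1 week, 24 members were called, and without library 3 likewise 24. The share of all genes in those fits is not given here. Desmosome genes hardly moved (1 higher, none lower of 17), while 8 of 29 claudins were lower and 2 higher. The connexin gjb2.L had 6.93, 6.61 and 5.15 CPM at 7 weeks, against 1.63, 1.138 and 1.55 CPM at 1 week (2.12 ± 0.26, adjusted p = 9.37e-06). The connexin gjb7.S had 4.12, 8.15 and 8.70 CPM at 7 weeks, against 12.9, 13.6 and 14.9 CPM at 1 week (-0.97 ± 0.18). The claudins cldn34.L (-0.86 ± 0.26) and cldn19.L (-0.72 ± 0.18) were lower as well, and T-cadherin cdh13.S was higher (0.95 ± 0.30). Without library 3 at 1 week the cldn34.L call was lost (-0.75, adjusted p = 0.0666), and the cdh13.S call was lost without any of 3 single libraries (0.59 to 0.93).

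The exposed noses were compared with the same control noses. At dose 200, 12 members were higher and 43 lower of 118 (46.6%, beside 35.4% of all genes, 17.8% higher and 17.7% lower). At dose 1000, 36 were higher and 32 lower (57.6%, beside 49.5%, 26.8% higher and 22.7% lower). Libraries did not overlap in 52 of 55 and 66 of 68 called members. No separate control is labelled for the exposure, both doses share the control libraries, and the doses were not tested against each other.

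Claudin calls were more often lower at dose 200 and more often higher at dose 1000, with 2 higher and 13 lower of 29 at dose 200 (median -0.02) and 15 higher and 4 lower at dose 1000 (median 0.68). For cldn7.L, 276.2, 282.3 and 301.0 CPM were measured at dose 200 and 932.8, 902.0 and 1056 CPM at dose 1000, against 416.4, 467.6 and 448.6 CPM in controls. The log2 fold changes were -0.64 ± 0.11 and 1.12 ± 0.11, and no library of any of the 3 groups overlapped with another group. For cldn6.1.S, 4.66, 5.72 and 11.7 CPM were measured at dose 200 and 168.4, 184.1 and 206.1 CPM at dose 1000, against 17.2, 36.8 and 71.6 CPM in controls (-2.54 ± 0.48 and 2.15 ± 0.46). The claudins cldn6.1.L, cldn6.2.L and cldn6.2.S were likewise lower at dose 200 and higher at dose 1000. At dose 1000, cldn3.L (0.96 ± 0.15) and cldn4.S (1.11 ± 0.18) were also higher, and cldn1.L was lower (-1.03 ± 0.15). At dose 200, cldn24.L (1.90 ± 0.41) and cldn24.S (1.02 ± 0.27) were higher, and neither was called at dose 1000. E-cadherin cdh1.S was also higher at dose 1000, with 627.1, 587.9 and 678.2 CPM, against 278.3, 311.0 and 316.0 CPM in controls (1.07 ± 0.13). Epithelial markers summed to 5457 to 6446 CPM at dose 200 and 5720 to 6223 CPM at dose 1000, below the 7752 to 9459 CPM in controls at both doses, and their part in the claudin levels was not tested.

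Among cadherins and desmosome genes, lower calls outnumbered higher ones at both doses. Cadherins were higher in 3 and lower in 15 of 41 at dose 200, and higher in 6 and lower in 16 at dose 1000. The type II cadherin cdh11.S, known from mesenchyme, had 20.2, 20.3 and 26.5 CPM at dose 200 and 12.6, 13.3 and 9.42 CPM at dose 1000, against 50.3, 45.2 and 47.5 CPM in controls (-1.10 ± 0.18 and -2.02 ± 0.19). The homeolog cdh11.L was lower too (-0.80 ± 0.17 and -1.60 ± 0.17). Levels of cdh6.L (-2.13 ± 0.24 and -2.41 ± 0.24) and cdh6.S (-1.74 ± 0.21 and -2.34 ± 0.21) were lower, and cdh24.S was close to absent (-4.32 ± 0.80 and -4.14 ± 0.78), with at most 0.108 CPM at either dose, against 0.553 to 1.84 CPM in controls. R-cadherin went the other way. For cdh4.L, 7.04, 9.96 and 8.403 CPM were measured at dose 200 and 9.06, 7.02 and 11.0 CPM at dose 1000, against 1.00, 1.46 and 1.11 CPM in controls (2.81 ± 0.86 and 2.92 ± 0.86). The call at dose 200 was lost without control library 1 (2.71, adjusted p = 0.0641) or 3 (2.75, adjusted p = 0.0654). The gene cdh19.S was also higher (0.97 ± 0.15 and 1.45 ± 0.15). Cartilage markers summed to 521.2 to 737.1 CPM at dose 200 and 210.4 to 267.3 CPM at dose 1000, against 8354 to 11170 CPM in controls, and their part in the lower cadherin levels was not tested. Desmosome genes were lower in 7 of 17 and higher in none at dose 200, and lower in 8 and higher in 1 at dose 1000, which was dsg2.S (0.35 ± 0.12). That call was lost without library 1 at dose 1000 (0.29, adjusted p = 0.0801), control library 1 (0.30, adjusted p = 0.0673) or control library 3 (0.33, adjusted p = 0.0511). The largest fall among desmosome genes at dose 1000 was that of pkp1.S, with 0.252, 0.952 and 0.429 CPM at dose 1000, against 4.65, 4.24 and 2.83 CPM in controls (-2.87 ± 0.53).

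Connexins were higher in 6 and lower in 6 of 23 at dose 200, and higher in 14 and lower in 3 at dose 1000. For gja7.S, 10.9, 11.6 and 13.2 CPM at dose 200 lay below 37.0, 33.9 and 37.6 CPM in controls (-1.61 ± 0.13), and dose 1000 was not called (0.13 ± 0.13). Its homeolog gja7.L was lower at dose 200 (-0.76 ± 0.11) and higher at dose 1000 (0.69 ± 0.11).

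The larval principal cavity was compared with the larval VNO, the chamber for the accessory olfactory system. Of 114 members, 14 were called higher in the principal cavity and 14 were called lower (24.6%, beside 15.2% of all genes, 8.66% higher and 6.53% lower), and the libraries did not overlap in all 28. Connexins were higher in 6 and lower in 1 of 23, and cadherins higher in 3 and lower in 9 of 41. Without principal cavity library 1, 6 were higher and 8 lower of 116, without its library 3, 8 and 9 of 114, and without VNO library 2, 7 and 8 of 116. For these reduced sets the share of all genes is not given, so a change over all genes cannot be told apart.

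The 9 cadherins lower in the principal cavity were cdh8.L, cdh9.S, cdh12.1.S and both homeologs of cdh6, cdh10 and cdh22, all of type II. Type II cadherins did not differ as a class. Entries not called included cdh8.S (-0.32 ± 0.44), cdh9.L (-0.24 ± 0.54), cdh11.L (0.26 ± 0.21) and cdh11.S (0.05 ± 0.27). For cdh10.S, 0.142, 0.147 and 0.188 CPM were measured in the principal cavity, against 2.37, 2.39 and 2.18 CPM in the VNO (-3.84 ± 0.39, adjusted p = 0.000706). Lower in the principal cavity as well were cdh22.L (-3.32 ± 0.31), cdh12.1.S (-3.35 ± 0.38), cdh9.S (-2.44 ± 0.45) and cdh6.L (-1.84 ± 0.37). All 5 were also called lower in whole larval noses than in larval bulbs. Without principal cavity library 1 cdh9.S was no longer called (-2.23, adjusted p = 0.0613). Central neuron markers summed to 168.5 to 219.5 CPM in the principal cavity and 171 to 283.8 CPM in the VNO, so their sums overlapped. Olfactory receptor neuron markers summed to 1081 to 1380 CPM in the principal cavity and 310.4 to 555.2 CPM in the VNO, without overlap. The part of these cells in the cadherin differences was not tested.

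Vascular junction genes were higher in the principal cavity. VE-cadherin cdh5.S had 3.96, 5.37 and 3.70 CPM in the principal cavity, against 1.12, 0.789 and 1.48 CPM in the VNO (1.95 ± 0.35). Likewise cldn5.L (1.44 ± 0.25) and cldn5.S (1.28 ± 0.23) were higher. The homeolog cdh5.L was called higher (1.04 ± 0.26, adjusted p = 0.0351), but the call was lost without any of 4 single libraries (0.89 to 1.141). Endothelial markers, 14 entries that include both cldn5 homeologs, summed to 96.7 to 113.8 CPM in the principal cavity and 38.8 to 56.5 CPM in the VNO. Their part in the higher levels of cdh5.S was not tested.

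Claudins of the chambers differed in kind. The gene cldn24.S had 21.1, 12.7 and 18.4 CPM in the principal cavity, against 0.815, 1.83 and 2.67 CPM in the VNO (3.29 ± 0.42, adjusted p = 0.00194). The call of cldn34.L (2.06 ± 0.51) was lost without any of 3 single libraries (1.70 to 2.10). In contrast, cldn15.1.S had 0.661, 2.62 and 1.91 CPM in the principal cavity, against 17.6, 30.9 and 20.6 CPM in the VNO (-3.73 ± 0.51). The homeologs of gjd3 went opposite ways, with gjd3.S higher (1.61 ± 0.35) and gjd3.L lower (-2.47 ± 0.33) in the principal cavity. The gjd3.S call was lost without principal cavity library 1 (1.69, adjusted p = 0.0756), its library 3 (1.45, adjusted p = 0.0831) or VNO library 2 (1.71, adjusted p = 0.0595). The abundant cldn4.L (0.29 ± 0.23), cdh1.S (0.44 ± 0.22) and dsp.L (0.05 ± 0.19) were not called, although cdh1.S was called higher without VNO library 1 (0.71, adjusted p = 0.0254).

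**Figure D5:**
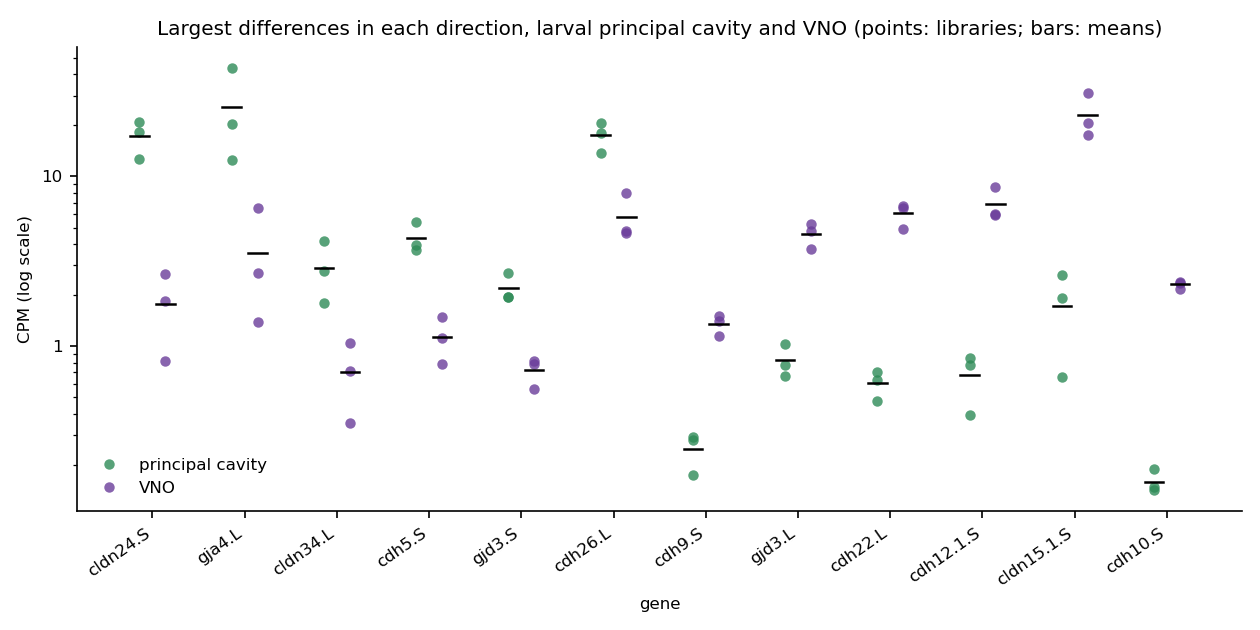
CPM (log scale) of the 6 members with the largest called differences in each direction between larval principal cavity and larval VNO, in order of fold change, with points for libraries and bars for means. The first 6 genes are higher in the principal cavity and the last 6 are higher in the VNO, with no overlap of libraries.

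Homeologs and chromosomal neighbours were described last, since the name rule did not use them. Of 54 homeolog pairs tested in larval noses against larval bulbs, 43 were called in the same direction, 8 had a call for 1 homeolog, 2 had none, and cdh11 alone was called in opposite directions. In adult against larval noses, 17 of 52 pairs were called in the same direction and 2 in opposite ones, cdh1 and dsc3. Of 107 members whose symbol matched RefSeq for Xenopus laevis, 32 stood next to another member, in 17 neighbouring pairs such as cldn4.L with cldn3.L and cdh2.L with dsc3.L. In larval noses against larval bulbs, both genes of 13 such pairs were called, 10 in the same direction and 3 in opposite ones. At dose 1000 of amino acids, 6 of 7 pairs with both genes called went in the same direction, and cdh9.S with cdh6.S went apart. Homeolog pairs and neighbouring pairs of all genes were not counted. The pair counts therefore have no share over all genes beside them and are not read as particular to the members.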

How the data were processed

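RNA-seq was made from noses and olfactory bulbs of Xenopus laevis, 39 libraries in 13 groups of 3. Nothing ties the 3 libraries of a group to different animals, so p-values measure the spread between libraries, which may be technical. The deposited counts are whole reads per gene. Per the submitters' processing notes, bcl2fastq 2.17.1.14, STAR 2.5 and featureCounts of Subread 1.5.0 were used. Genome build, annotation and strand setting: not given in the sources used here. The deposited TPM values, which the authors scaled for gene length, served to compare levels between genes. Of 37240 rows, 17 exact repeats were dropped.

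Counts were tested with edgeR 4.0.16 in R 4.3.3, after filterByExpr (count minimum 10, total 15) and TMM scaling, by quasi-likelihood F tests with Benjamini-Hochberg adjustment over all genes in the model and calls at an adjusted p below 0.05. Separate models held the 7 nose groups, the 4 bulb groups, both chambers, and the 8 groups of noses and bulbs at matched times. The SE is the log2 fold change divided by the square root of F. CPM used TMM factors over all libraries. The tests were checked on simulated counts with few changed genes and a fixed spread. That check does not cover scaling where many genes change, as they did here.

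The members and lists were chosen with earlier results of these data known. The text names, for each comparison, up to 6 genes called higher and 6 lower of largest change whose libraries did not overlap and whose higher group averaged 1 CPM or more, anchor genes in the main comparisons, the 3 highest members of each family by TPM, and further genes chosen after their values were seen. Some genes that this rule selects are not reported here. Alternatives were DESeq2 1.42.0, RLE factors, no low-count filter, homeologs summed, all libraries in 1 model, each library left out and, chosen after seeing the data, the column number as a block.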

Additional observations from a re-analysis of the deposited data

Results flagged for a closer look

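The values below are differences between the nose response and the bulb response to transection, nose minus bulb on the log2 scale, for 19 cases in which the difference was called and the gene itself was called in opposite directions in noses and in bulbs. At 2 days they were 2.94 for cldn24.L, 1.73 for cldn24.S, -1.85 for cldn4.L and -1.86 for cldn7.L. At 1 week they were -2.14 for cdh1.L, 2.85 for cldn24.L, 2.71 for cldn24.S, -1.74 for cldn3.L, -1.74 for cldn7.L, -4.17 for pkp1.S, -1.07 for pkp3.L and -1.85 for pkp3.S. At 7 weeks they were 2.49 for cdh10.L, 3.98 for cdh4.L, -1.82 for cldn3.L, -2.29 for cldn4.L, -2.18 for cldn7.L, -4.30 for pkp1.S and -1.28 for pkp3.L. The cdh4.L value was 1.10 and not called without library 3 of the noses at 7 weeks (adjusted p = 0.0606). In cdh10.L, that same library lay below every control nose library, and only the other libraries of its group lay above them. In pkp1.S, bulb levels were at most 0.234 CPM at 7 weeks.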

How the results depend on the processing

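Of 6088 alternatives for 492 gene values, 5765 kept direction and side of the threshold, 228 lost the call, 78 gained one and 17 reversed, all with homeologs summed, where a homeolog takes the value of its pair. In adult noses these were cdh1.L -0.32, cdh3.L 0.38, cldn5.L -0.31 and dsc3.S 0.24. In noses after transection they were cdh4.S 0.95 and cdh3.L 0.38 at 1 week, cdh1.L 0.12, cdh3.L 0.33 and cldn5.L 0.86 at 7 weeks, and cldn5.L 0.32 at 7 weeks against 1 week. In bulbs they were gja4.S 0.85 at 2 days, gja1.S -0.36 at 1 week, and gja1.S 0.60 and jup.L -0.25 at 7 weeks. The others were cdh26.L -0.88 at dose 1000, gjd3.S -0.82 in the principal cavity against the VNO, and tjp1.L -0.37 in larval noses against larval bulbs. Of 198 alternatives for the share of members called, 182 stayed within 1.5 times. Shares under an alternative are given without the share of all genes, so a change over all genes cannot be told apart. With all 39 libraries in 1 model the share was 13.6% in noses and 22.4% in bulbs at 2 days (19 higher and 9 lower in bulbs), 28.8% in bulbs at 1 week, and 41.6% for principal cavity against VNO. The same model gave 8 higher and 20 lower for noses at 7 weeks against 1 week, and 30 and 20 for bulbs at 7 weeks. The cause was not tested. With 1 library left out, the share ranged from 20 to 32.8% for noses at 7 weeks against 1 week, from 29.3 to 38.8% for bulbs at 2 days, from 12.1 to 32.5% for principal cavity against VNO, and from 12.8 to 21.6% for the nose minus bulb response at 2 days. Column numbers recur in every group, but nothing in the labels ties equal numbers to 1 animal or day. Deviations of same-numbered libraries correlated at -0.0775, 0.115 and 0.236 between the chambers and at -0.266 to 0.198 in the other comparisons. In noses at 7 weeks and 1 week every library correlated best with its own number, but only at 0.0128 to 0.0612. With the number as a replicate block, chosen after seeing the data, the share called between the chambers was 21.9%, no share of members called moved by over 1.5 times, and 5 gene calls were lost and 2 gained. Depth limits genes at a few reads, such as cldn6.1.L in bulbs.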

Other observations

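Some homeolog pairs were called in opposite directions. In bulbs after transection, 3 of 47 pairs tested were at each time. Beside them, 8, 9 and 13 pairs were called in the same direction at 2 days, 1 week and 7 weeks. The remaining pairs had a call for 1 homeolog or for none. Homeolog pairs of all genes were not counted. Among the opposite pairs were gja4 and gjd3 at 2 days, dsg2 and gja5 at 1 week, and cdh26 and gjd3 at 7 weeks. The L copy of cldn5 held 29.6, 24.8 and 23.6% of cldn5 TPM in larval noses, against 48.2, 50.1 and 49.1% in larval bulbs. Pairs called in the same direction numbered 19 of 52 at dose 1000 and 4 of 52 in noses at 2 days.

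Pannexins, which form channels related to gap junctions, were higher in 3 of 5 entries in adult noses, with none lower, beside 22.7% of all genes higher. In bulbs at each time after transection, 1 of 4 was higher and 2 were lower. Of all genes, 46.2%, 56% and 65.9% were called in bulbs at 2 days, 1 week and 7 weeks. So few entries are not read as a result about pannexins. In the bulbs at 2 days, col17a1.L, a hemidesmosome gene of stratified epithelium outside the name rule and chosen after its values were seen, averaged 19.5 CPM, against 0.229 CPM in control bulbs.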
